A study of Mus musculus with 8 samples.

Results

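Network-forming, type VI and multiplexin collagens were examined in mouse corneas that overexpress TGF-beta (TGFB) and in corneas of wildtype littermates, with 4 arrays per group. The 8 genes are Col4a1 and Col4a2, the common chains of the type IV collagen network, Col6a1, Col6a2 and Col6a3, the chains of type VI collagen, the multiplexins Col15a1 and Col18a1, and Col16a1, a fibril-associated collagen with an interrupted triple helix. They were taken by symbol, and every probe set that the platform annotation gives to 1 of them alone was kept, which made 11 of the 45037 probe sets tested. Col4a1, Col6a2 and Col18a1 have 2 probe sets each and the other 5 genes have 1. The values are probe set signals of total RNA from cornea, extracted with TRizol according to the titles. The labels do not give the TGF-beta isoform, the promoter or cell type that drives it, the strain, the age or the number of animals behind an array, so a p-value here speaks only of the scatter among arrays, and that scatter may be technical. Arrays are numbered 1 to 4 within a group, and the numbers pair no arrays.

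Type IV collagen is the sheet-like scaffold of basement membranes. In the cornea these lie under the epithelium and, as Descemet's membrane, in front of the endothelium. Type VI collagen assembles from 3 different chains into beaded microfilaments that run between the collagen fibrils of the stroma, and it is abundant there. Multiplexins carry heparan or chondroitin sulfate chains and sit in or next to basement membranes, and the C-terminal fragment of type XVIII collagen, endostatin, is known as an inhibitor of vessel growth. TGF-beta is a well known inducer of matrix genes in wound fibroblasts, and the comparison asks whether these chains are among the transcripts that change in such corneas.

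The 8 arrays had the same 2% trimmed mean signal of 150 and median signals between 26.3 and 34.4. Every signal of the 11 probe sets was above the median of its array, the lowest being 65.5 for Col15a1 in wildtype 1. Markers of cornea were present but uneven. The 6 keratocyte markers summed to signals of 14472 to 19137 over the TGFB arrays, against 18867 to 30959.5 over wildtype. All 6 had lower means in TGFB. The 5 corneal epithelial markers summed to 11443 to 15515 over TGFB, against 6198 to 15101 over wildtype, and 2 of the 5 had higher means in TGFB. Much of the epithelial sum was Krt5 and Krt14, keratins shared with epidermis. The cornea keratin Krt12 had signals of 289, 3467, 4161 and 4551 on the TGFB arrays, against 5146, 3008, 5766 and 562 on the wildtype arrays, and was low in TGFB 1 and wildtype 4. Pax6 was 91.6 to 746 over TGFB, against 206 to 1068 over wildtype, and Aldh3a1 was 52.5 to 128 over TGFB, against 70.5 to 4060.1 over wildtype. Markers of other tissues differed between arrays. The summed signal of 7 cornified epidermis genes was 1048.5 to 45219.9 over TGFB, against 712 to 24637 over wildtype, and that of 7 pigment cell genes was 3142 to 14637 over TGFB, against 14318 to 31004 over wildtype, with 7 of 7 pigment genes lower on average in TGFB. Blood vessel endothelial markers (10 genes) summed to 1553 to 1798 over TGFB, against 1434 to 2763 over wildtype. The part of these tissues in the values below was not tested beyond the covariate fits, and no keratocyte score was fitted. The ratio of the Gapdh 3' to 5' signal, which grows with RNA decay, was 2.88 to 3.55 in TGFB arrays, 2.19 to 4.31 in wildtype 1 to wildtype 3 and 6.41 in wildtype 4. The genes Tgfb1, Tgfb2 and Tgfb3 differed by 0.36 (SE 0.25), -0.10 (SE 0.28) and 0.10 (SE 0.31) on the log2 scale, and a transgene of another species need not be seen by these probe sets.

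None of the 11 probe sets differed between TGFB and wildtype corneas past the threshold of an adjusted p under 0.05 (limma on log2(signal + 16), Benjamini-Hochberg over all 45037 probe sets), where 0% of all probe sets were called. At an unadjusted p under 0.05, 0 of the 11 and 5.86% of all probe sets passed (2.7% higher and 3.16% lower in TGFB), and the groups overlapped for each of the 11, while 3.28% of all probe sets had groups that did not overlap. Group means were higher in TGFB for 10 of the 11 probe sets, against 51.6% of all probe sets. The exception was Col16a1. The count was 6 of 11 with the pigment cell score as a covariate, 7 with the vessel endothelial score, and 8 without TGFB 1 or without the 3 arrays with high cornified epidermis transcripts. The median log2 difference was 0.19 over the 11 probe sets and 0.01 over all, and the 11 ran between -0.39 and 0.40. The 95% interval of the difference ended below 1, a doubling, for 10 of the 11 probe sets and began above -1, a halving, for all 11. The same held for 91.7% and 93.6% of all probe sets, so the counts are near the background and describe only the precision of each value. These intervals are per probe set and not adjusted for their number. In RNA from whole tissue, fewer cells of a type and less RNA per cell cannot be told apart.

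**Figure D1:**
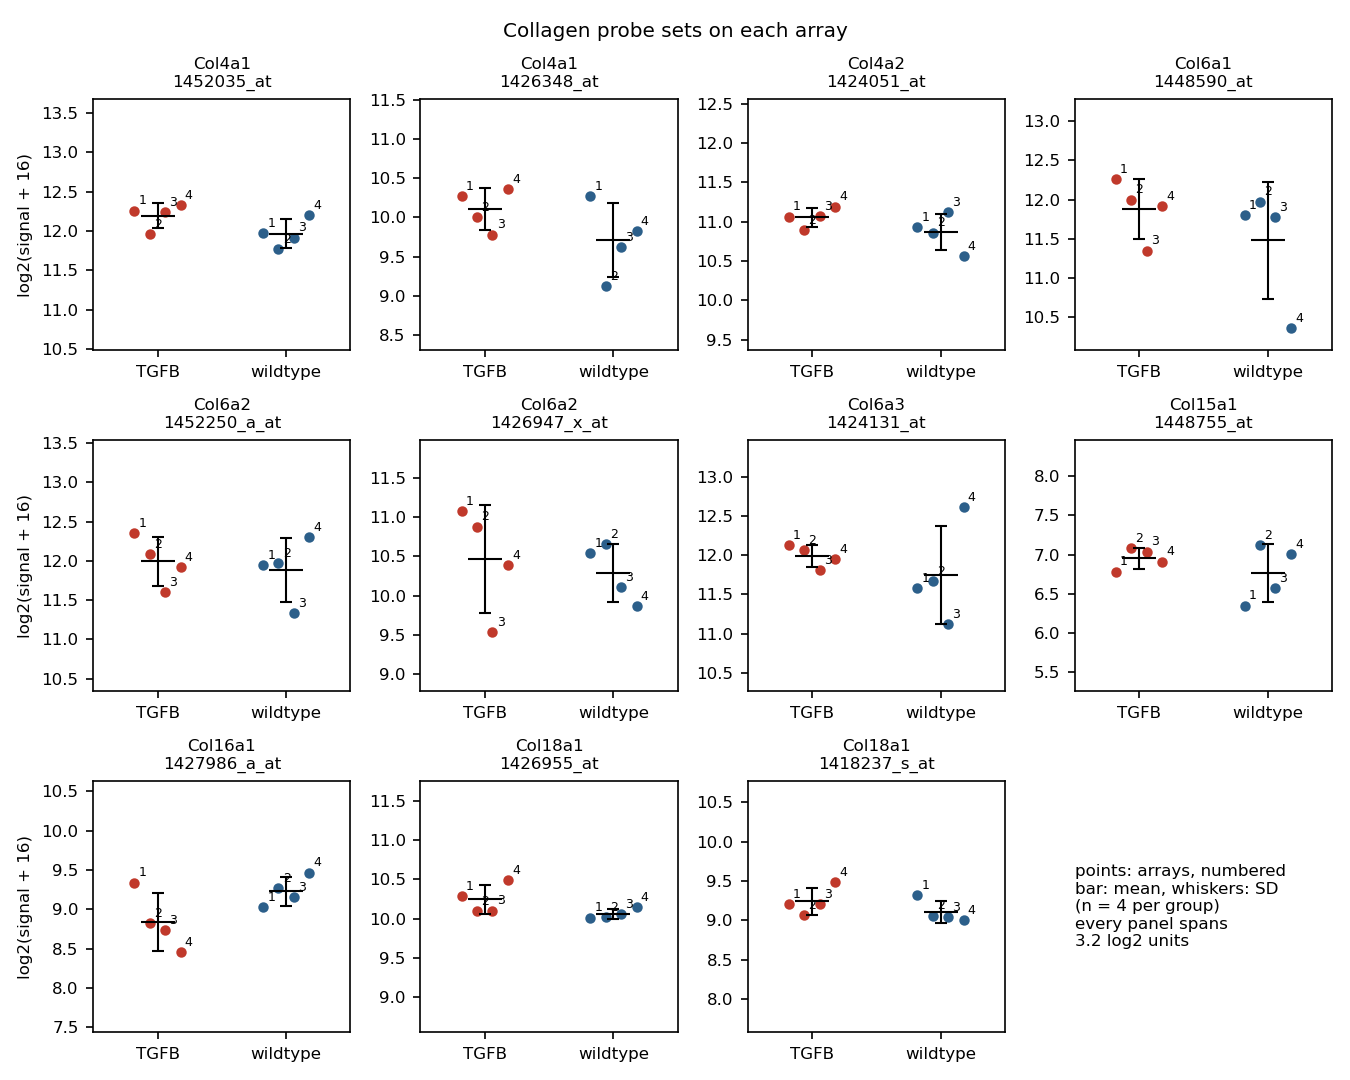
Each panel shows 1 probe set, with log2(signal + 16) on the vertical axis, TGFB arrays on the left and wildtype arrays on the right, points for arrays (numbered), a bar for the mean and whiskers for the SD (n = 4). The groups overlap in every panel, and wildtype 4 lies lowest for Col6a1 (signal of 1304) and highest for Col6a3 (6234).

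**Figure D2:**
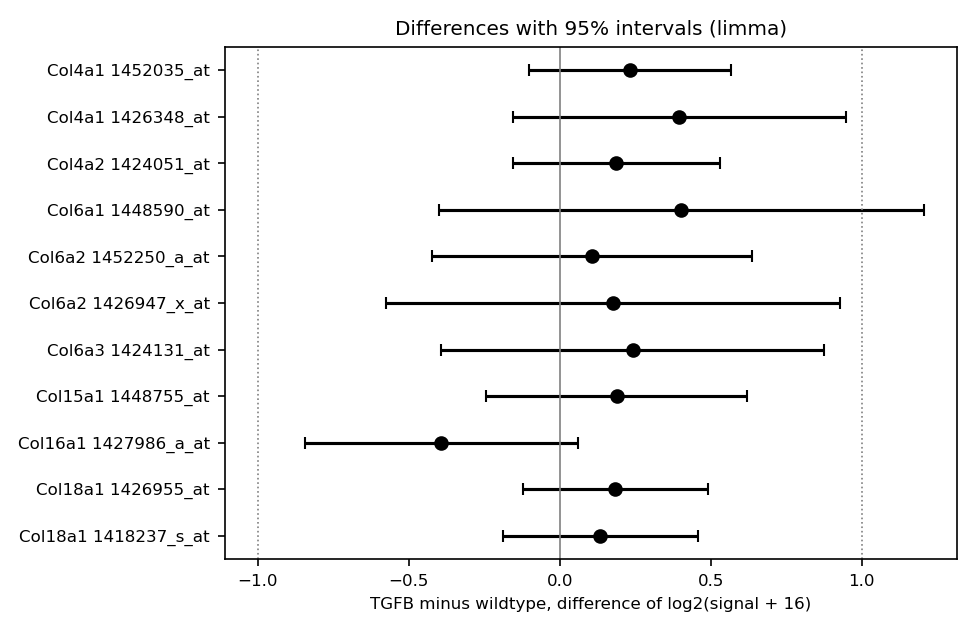
Points give the TGFB minus wildtype difference of log2(signal + 16) for each probe set and bars its 95% interval from limma; dotted lines mark a halving and a doubling. All 11 intervals include 0, and the Col6a1 interval alone passes 1.

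Col4a1 and Col4a2 lie head to head on mouse chromosome 8 and are known to share a promoter, so their start regions are shown as the sequence both genes have in common. RefSeq windows of 300 bases (250 before and 50 after an annotated start, build GRCm38.p6) are given 5′ to 3′ on the strand of each gene, at chr8:11312777-11313076 on the minus strand for Col4a1 and at chr8:11312555-11312854 on the plus strand for Col4a2. Capitals mark the 78 bases that the windows share, which read as the reverse complement of each other, and the annotated starts lie 21 bases apart.
Col4a1: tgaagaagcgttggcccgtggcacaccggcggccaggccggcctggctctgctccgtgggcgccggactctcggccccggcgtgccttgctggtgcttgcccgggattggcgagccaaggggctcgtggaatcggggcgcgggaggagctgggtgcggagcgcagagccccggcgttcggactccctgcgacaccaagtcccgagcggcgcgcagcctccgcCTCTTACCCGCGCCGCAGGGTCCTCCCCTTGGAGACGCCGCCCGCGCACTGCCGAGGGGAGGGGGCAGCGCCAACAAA
Col4a2: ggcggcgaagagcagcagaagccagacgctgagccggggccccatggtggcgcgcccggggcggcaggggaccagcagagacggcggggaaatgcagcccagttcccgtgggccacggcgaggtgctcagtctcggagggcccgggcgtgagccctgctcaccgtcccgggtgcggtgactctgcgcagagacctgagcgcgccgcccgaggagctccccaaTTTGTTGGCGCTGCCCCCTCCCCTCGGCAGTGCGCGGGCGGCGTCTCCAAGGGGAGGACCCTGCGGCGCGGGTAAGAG
The windows are rich in G and C (74.0% for Col4a1 and 73.7% for Col4a2, against a median of 52.7% over 32851 promoter windows). Both hold CCAAT on 1 strand or the other, as 37.4% of all windows do, and GGGCGG, the GC box, as 35.7% do, while neither holds TATAAA, found in 13.6%. A match of letters is a description only.

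Both chains of the common type IV network had slightly higher means in TGFB corneas, by about 1 within-group SD, and the arrays of the groups overlapped. The leading Col4a1 probe set (1452035_at, the one with the highest mean) had signals of 4892, 3963, 4821 and 5139 in TGFB 1 to TGFB 4, against 4004, 3469, 3849 and 4707 in wildtype 1 to wildtype 4. The TGFB arrays were mostly the higher ones, but TGFB 2 lay inside the wildtype range, and wildtype 1 and wildtype 4 lay inside the TGFB range. On the log2 scale this was 12.20 ± 0.16 in TGFB against 11.97 ± 0.18 in wildtype (SD, n = 4 each), a difference of 0.23 (SE 0.15, 95% interval -0.10 to 0.57, limma adjusted p = 0.902). The other Col4a1 probe set (1426348_at), designed from the same transcript record, had signals of 1222, 1015, 864 and 1300.3 in TGFB, against 1218, 544, 772 and 889.9 in wildtype arrays. Wildtype 1 was as high as the TGFB arrays and wildtype 2 was the lowest. Its difference was 0.40 (SE 0.25, 95% interval -0.16 to 0.95, adjusted p = 0.898).

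Col4a2 (1424051_at) had signals of 2127, 1891, 2135 and 2324 on the TGFB arrays, against 1936, 1843, 2207 and 1501 on the wildtype arrays. Wildtype 1 and wildtype 3 lay among the TGFB arrays, and wildtype 4 was the lowest of all. The log2 mean was 11.06 ± 0.12 in TGFB against 10.87 ± 0.23 in wildtype, a difference of 0.19 (SE 0.15, 95% interval -0.16 to 0.53, adjusted p = 0.920). Without wildtype 4 it was 0.09 (SE 0.14). The leading Col4a1 probe set and Col4a2 varied little between arrays of a group. Their within-group SDs of 0.17 and 0.18 were undercut by 11.7% and 14.1% of the probe sets brighter than the median. Their levels over the 8 arrays were not closely tied (Pearson r = 0.22, exact permutation p = 0.613, Spearman rho = 0.45, exact permutation p = 0.267, adjusted p = 0.806 and 0.749 over 28 pairs of the 8 genes). Without the 2 arrays farthest from the Col4a1 median r was -0.16. For comparison, the 2 probe sets of a single gene had r = 0.66 for Col4a1, 0.52 for Col6a2 and 0.65 for Col18a1. With so little spread to follow, the low r cannot show that the 2 chains are regulated apart. In wildtype 4, Col4a1 was the highest of the wildtype arrays and Col4a2 the lowest.

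The minor type IV chains, which occur in specialised basement membranes such as the lens capsule and Descemet's membrane, had lower means in TGFB corneas. Col4a3, Col4a4, Col4a5 and Col4a6 had log2 differences of -0.71 (SE 0.44), -1.29 (SE 0.60), -0.65 (SE 0.31) and -0.80 (SE 0.35), with limma adjusted p between 0.845 and 0.898. Col4a3 was dim, with signals of 1.48, 14.9, 38.2 and 26.3 in TGFB, against 104, 29.4, 27.3 and 21.1 in wildtype arrays. It was above the median of its array only in TGFB 3 and wildtype 1. Col4a4 signals were 39.1, 68.9, 278 and 198 in TGFB, against 477, 173, 598 and 165 in wildtype arrays. Col4a5 signals were 471, 423, 822 and 883 in TGFB, against 1481, 817, 1129 and 669 in wildtype arrays. TGFB 1 and TGFB 2 were the lowest arrays for both genes, and the groups overlapped. The summed signals of 10 lens markers (91.2 and 119.7 in TGFB 1 and TGFB 2, and 198 to 24782 in the other 6 arrays) and of 5 corneal endothelial markers (1865 and 1987 in TGFB 1 and TGFB 2, and 2718 to 6346 in the other 6) were also lowest in these 2 arrays. Much of the endothelial sum was Col8a1 (1022 and 1201 in TGFB 1 and TGFB 2), itself a network collagen. Col8a1, Slc4a4 and Cdh2 were lowest in these 2 arrays. Slc4a11 was lowest in TGFB 4 (38.1) and wildtype 2 (38.4), and Col8a2 in wildtype 2 (352). The part of lens and endothelium in the levels of the minor chains was not tested, and neither was the difference between common and minor chains.

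Type VI collagen is built from chains that are made by separate genes, Col6a1 and Col6a2 near each other on chromosome 10 and Col6a3 on chromosome 1. Over the 8 arrays Col6a2 and Col6a3 had r = 0.83. Col6a1 had r = -0.09 with Col6a2 and -0.49 with Col6a3, but 0.83 and 0.79 without TGFB 3 and wildtype 4. The RefSeq start windows of Col6a1 and Col6a3 are shown because their levels parted in wildtype 4, at chr10:76725995-76726294 on the minus strand for Col6a1 and at chr1:90843922-90844221 on the minus strand for Col6a3 (GRCm38.p6). Capitals mark CAGAC, the CAGA box that SMAD3 and SMAD4 can bind, and TGANTCA, the AP-1 site, on either strand.
Col6a1: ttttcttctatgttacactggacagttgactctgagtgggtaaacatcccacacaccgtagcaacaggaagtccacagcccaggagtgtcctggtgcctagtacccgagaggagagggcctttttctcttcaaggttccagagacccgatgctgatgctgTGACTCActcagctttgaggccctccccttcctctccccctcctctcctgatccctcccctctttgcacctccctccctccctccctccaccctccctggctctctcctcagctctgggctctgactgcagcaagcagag
Col6a3: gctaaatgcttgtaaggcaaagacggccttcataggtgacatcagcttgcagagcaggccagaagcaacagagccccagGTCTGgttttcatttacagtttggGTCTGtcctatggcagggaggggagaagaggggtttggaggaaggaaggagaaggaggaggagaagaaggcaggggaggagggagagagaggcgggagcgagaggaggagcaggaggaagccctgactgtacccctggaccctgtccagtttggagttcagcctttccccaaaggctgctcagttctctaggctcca
The Col6a1 window holds 1 AP-1 site and 0 CAGA boxes, and the Col6a3 window holds 0 AP-1 sites and 2 CAGA boxes, both on the opposite strand. Over the 32851 windows, 7.81% hold an AP-1 site and 49.6% a CAGA box. Of the 2 Col6a2 windows, 1 holds a CAGA box and neither an AP-1 site. These matches of letters are a description only, and their part in the levels was not tested.

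Col6a1 (1448590_at) had signals of 4884, 4073, 2593 and 3857 on the TGFB arrays, against 3551, 4005, 3492 and 1304 on the wildtype arrays. Wildtype 4 lay far below the other 7 arrays, which ran from 2593 to 4884 with both groups mixed. The log2 mean was 11.88 ± 0.38 in TGFB against 11.48 ± 0.75 in wildtype, a difference of 0.40 (SE 0.36, 95% interval -0.40 to 1.21, limma adjusted p = 0.920). Without wildtype 4 the difference was 0.03 (SE 0.22), so wildtype 4 alone carries most of it. It was 0.13 (SE 0.28) with array weights and 0.23 (SE 0.34) with the cornified epidermis score, and 0.78 (SE 0.33) with the vessel endothelial score and 0.72 (SE 0.55) with the pigment cell score as a covariate. Col6a3 (1424131_at), whose large chain completes the trimer, had signals of 4468, 4261, 3569.5 and 3933 on the TGFB arrays, against 3042, 3251, 2211 and 6234 on the wildtype arrays. Here wildtype 4 was the highest of all, and the other wildtype arrays lay below every TGFB array. The log2 mean was 11.99 ± 0.14 in TGFB against 11.75 ± 0.62 in wildtype, a difference of 0.24 (SE 0.28, 95% interval -0.39 to 0.88, adjusted p = 0.933). Without wildtype 4 it was 0.53 (SE 0.17, adjusted p = 0.327), the smallest adjusted p of any of the 11 probe sets over the 22 other settings tried. Col6a3 and the leading Col18a1 probe set were then the 2 of 11 whose groups did not overlap, both higher in TGFB, against 10.6% of all probe sets in that setting.

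Col6a2 had signals of 5228, 4338, 3085 and 3870.2 on the TGFB arrays, against 3924, 3990.1, 2559 and 5026 on the wildtype arrays at its leading probe set (1452250_a_at). Both groups covered nearly the same range, and the log2 difference was 0.11 (SE 0.24, 95% interval -0.42 to 0.64, adjusted p = 0.969). Its other probe set (1426947_x_at, a suffix that marks probes which may also match other transcripts) had 2141, 1864, 725 and 1328 in TGFB, against 1474, 1595, 1086 and 919 in wildtype arrays. TGFB 3 was the lowest array there and TGFB 1 the highest, and the difference was 0.18 (SE 0.33, 95% interval -0.57 to 0.93, adjusted p = 0.961). Although both probe sets come from the same transcript record, they went apart in wildtype 4, where the leading one was the highest and the other the lowest of the wildtype arrays. The within-array ratio of the leading to the other probe set, as a ratio of signal + 16, was 2.43, 2.32, 4.19 and 2.89 on the TGFB arrays, against 2.64, 2.49, 2.34 and 5.39 on the wildtype arrays. Wildtype 4 thus stood out within 1 gene as well as between chains, and its Gapdh 3'/5' ratio of 6.41 was the highest of the 8 arrays. The part of RNA decay in these values was not tested beyond the covariate fit given at the end.

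**Figure D3:**
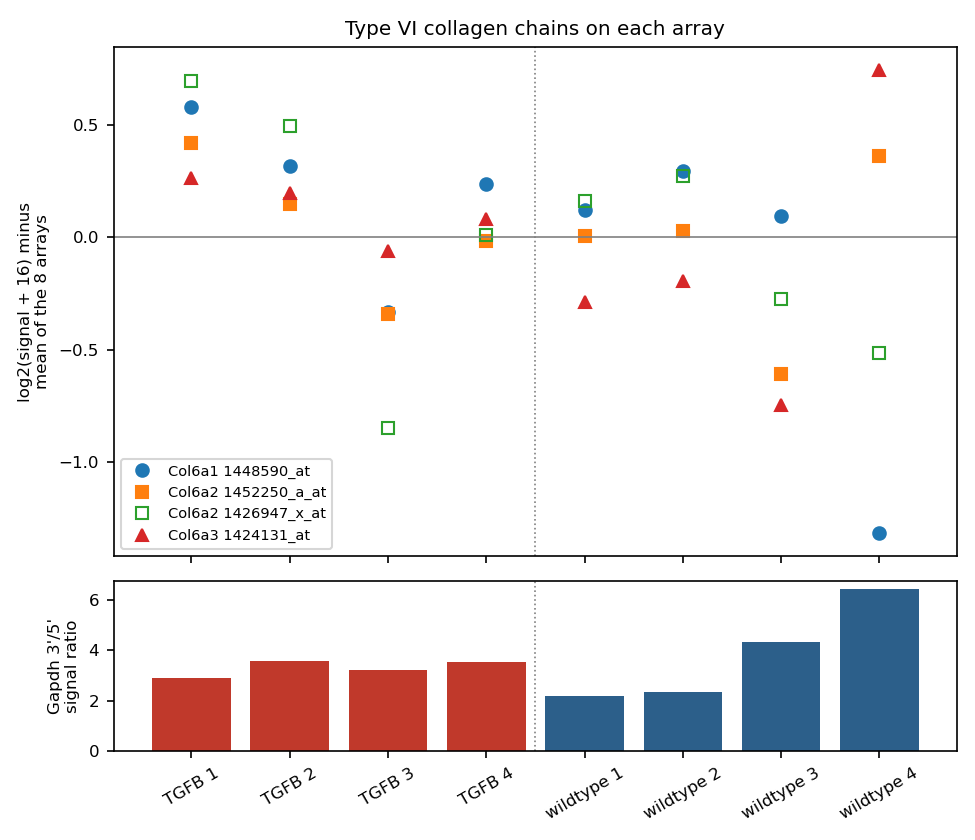
The upper panel plots log2(signal + 16) of the 4 type VI probe sets on each array, minus the mean of that probe set over the 8 arrays, with open squares for the second Col6a2 probe set; the lower panel gives the Gapdh 3'/5' signal ratio. In wildtype 4, which has the ratio of 6.41, Col6a3 is at its highest and Col6a1 at its lowest, and the second Col6a2 probe set lies below 0 while the leading one lies above it.

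Col6a2 and Col6a3 had the highest correlation of the 28 pairs of genes (r = 0.83, exact permutation p = 0.0116, rho = 0.79, exact permutation p = 0.0279), which did not pass after adjustment (adjusted p = 0.170 and 0.391), and without the 2 arrays farthest from the Col6a2 median r was 0.69. Col6a1 went with neither, at r = -0.09 with Col6a2 and r = -0.49 with Col6a3 (adjusted p = 0.835 and 0.713 over 28 pairs, exact permutation, rho = 0.45 and 0.14). Without TGFB 3 and wildtype 4, the 2 arrays farthest from the Col6a1 median, r was 0.83 with Col6a2 and 0.79 with Col6a3 (exact permutation p = 0.0681 and 0.0569). The low or negative correlations of Col6a1 thus rest on those arrays. Over the 28 pairs, r was above 0 for 16, its median was 0.16, and 0 pairs passed after adjustment. The pairs share arrays and the groups are pooled in them.

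The Col18a1 probe sets had the smallest within-group SDs of the 11 (0.14 and 0.16). Col18a1, the source of endostatin, had signals of 1233, 1081, 1083 and 1421 on the TGFB arrays, against 1018, 1024, 1053 and 1116 on the wildtype arrays at its leading probe set (1426955_at). Of the wildtype arrays, only wildtype 4 reached into the TGFB range, and TGFB 4 was the highest. The log2 mean was 10.24 ± 0.19 in TGFB against 10.06 ± 0.06 in wildtype, a difference of 0.18 (SE 0.14, 95% interval -0.12 to 0.49, limma adjusted p = 0.912). The second probe set (1418237_s_at) had 574, 522, 574 and 700.4 on the TGFB arrays, against 623, 518, 512 and 497 on the wildtype arrays. Here wildtype 1 was above 3 TGFB arrays, and the difference was 0.13 (SE 0.14, 95% interval -0.19 to 0.46, adjusted p = 0.927). RefSeq gives Col18a1 2 start windows on chromosome 10, and the files do not say which transcript either probe set reads.

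Col15a1 (1448755_at), the related chain found around vessels, muscle and nerves, was dim, with signals of 94.0, 119, 115 and 104 on the TGFB arrays, against 65.5, 123, 79.3 and 113 on the wildtype arrays. The TGFB arrays lay wholly inside the wildtype range. The log2 mean was 6.95 ± 0.13 in TGFB against 6.76 ± 0.36 in wildtype, a difference of 0.19 (SE 0.19, 95% interval -0.24 to 0.62, adjusted p = 0.927). With the mean of the vessel endothelial markers as a covariate it was -0.0027 (SE 0.18). These markers themselves were lower on average in TGFB for 8 of 10 genes, with a mean log2 difference of -0.23. The fit thus set Col15a1 lower where the markers were higher, and the part of vessels in its level was not tested. Over the 8 arrays Col15a1 and Col18a1 had r = 0.15 (exact permutation p = 0.724, rho = 0.05, adjusted p = 0.811 over 28 pairs). Without wildtype 1 and wildtype 3, r was -0.75.

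Col16a1 (1427986_a_at), a minor fibril-associated collagen, was the 1 gene of the 8 with a lower mean in TGFB corneas and had the smallest p of the 11 probe sets. Its signals were 632, 438, 410.1 and 334 on the TGFB arrays, against 507, 601, 554 and 692 on the wildtype arrays. The TGFB arrays were below the wildtype ones apart from TGFB 1, which lay near the top of the wildtype range. The log2 mean was 8.84 ± 0.37 in TGFB against 9.23 ± 0.19 in wildtype, a difference of -0.39 (SE 0.20, 95% interval -0.84 to 0.06, limma adjusted p = 0.875). With 1 array left out it was lowest at -0.56 (TGFB 1 out) and highest at -0.26 (TGFB 4 out), and it stayed below 0 in every setting tried. It was -0.62 (SE 0.22) without the 3 arrays with high cornified epidermis transcripts and -0.87 (SE 0.23) with the pigment cell score as a covariate, and neither passed (limma adjusted p = 0.987 and 1.00).

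The other collagens and the partners of these chains gave 0 calls, as did all probe sets, so they are described by counts and medians of the brightest probe set of each gene. By that measure 7 of the 8 genes were higher in TGFB on average, with a median log2 difference of 0.19. Of 14 other network and non-fibrillar collagens, 4 were higher and 10 lower (median -0.15), led at the lower end by Col4a4 and at the upper end by the membrane collagen Col25a1 (0.88, SE 0.46) and the anchoring fibril collagen Col7a1 (0.73, SE 0.24). Of 14 fibrillar and fibril-associated collagens, 5 were higher and 9 lower (median -0.08), between -0.51 (SE 0.32) for Col9a1 and 0.58 (SE 0.50) for Col9a2, a dim probe set (signals of 2.69 to 85.2). Of 17 other basement membrane proteins, 7 were higher and 10 lower (median -0.16), among them Lamb3 and Lama3 of laminin-332 at 1.35 (SE 0.36) and 1.22 (SE 0.24), and Lama1 and Lama2 at -0.75 (SE 0.31) and -0.47 (SE 0.22). Whether the medians of these lists differ was not tested.

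**Figure D4:**
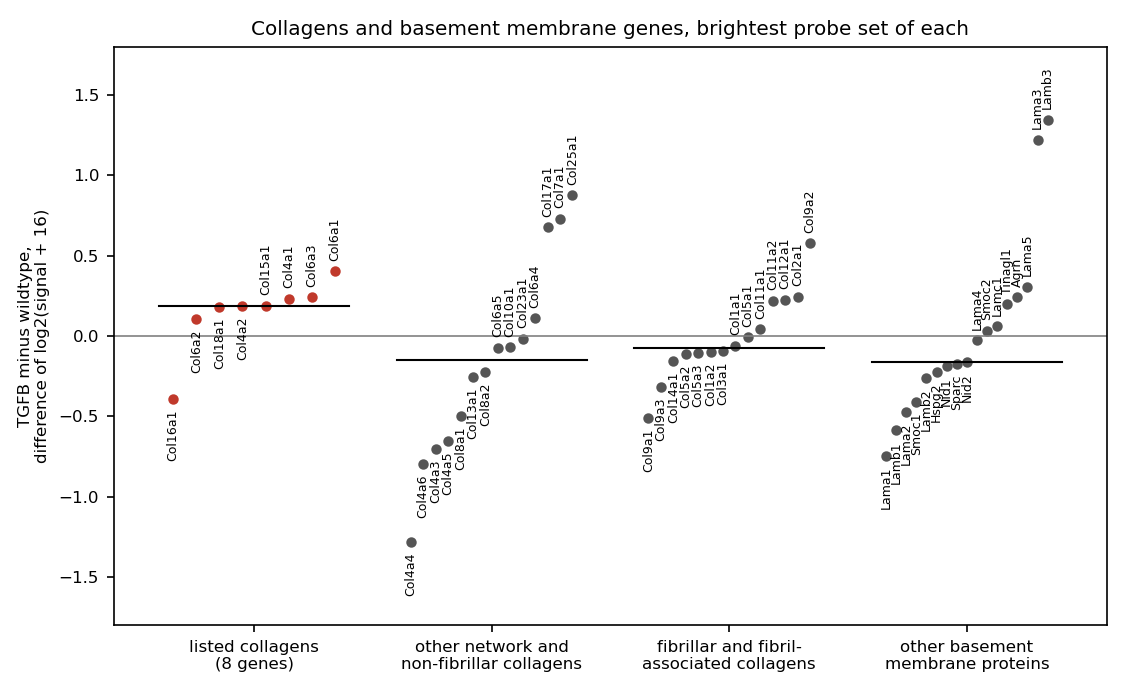
Points give the TGFB minus wildtype difference of log2(signal + 16) at the brightest probe set of each gene, in 4 lists, with a line at the median of each list. The 8 listed collagens lie between -0.39 and 0.40, a narrower range than the other 3 lists, which hold more genes.

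Receptors of these collagens included 6 higher and 7 lower genes of 13 (median -0.06). Cspg4, the NG2 proteoglycan that binds type VI collagen on pericytes, had signals of 238, 254, 247 and 189 in TGFB, against 173, 176, 179.5 and 172 in wildtype arrays. Every TGFB array was above every wildtype array, but the difference of 0.37 (SE 0.13) did not pass (limma adjusted p = 0.837). Of the 5 pericyte markers, Cspg4 was the only one with a higher mean in TGFB. The others were Rgs5 at -0.98 (SE 0.42), Kcnj8 at -0.60 (SE 0.49), Abcc9 at -0.31 (SE 0.39) and Pdgfrb at -0.10 (SE 0.27), and the 5 summed to signals of 2173 to 3121 over TGFB, against 2792 to 4913 over wildtype. Gpc1 was at 0.46 (SE 0.32), the integrin chain Itgb1 at 0.29 (SE 0.22) and the endothelial receptor Kdr at -0.52 (SE 0.34). Genes of collagen assembly, secretion and crosslinking were higher for 6 and lower for 7 of 13 (median -0.05), with the collagen chaperone Serpinh1 at -0.48 (SE 0.28), the glycosyltransferase Colgalt1 at -0.22 (SE 0.18), the prolyl hydroxylase P4ha2 at 0.25 (SE 0.26) and the lysyl hydroxylase Plod2 at 0.37 (SE 0.42). Of 9 proteases that can cut type IV or type XVIII collagen, 6 were higher and 3 lower (median 0.12). Mmp9, which degrades type IV collagen, had signals of 118, 17.4, 194 and 176 on the TGFB arrays, against 10.9, 12.8, 11.01 and 55.8 on the wildtype arrays. TGFB 2 lay among the wildtype arrays, and wildtype 1 to wildtype 3 were below 16 and below the median of their array, so no fold is given (limma adjusted p = 0.837). Elane was dim on every array (4.67 to 36.2), and Ctsl was at -0.40 (SE 0.23). Mmp3, at 0.90 (SE 0.35), was below the median of its array in wildtype 2 and wildtype 3 (18.2 and 15.1). In wildtype 1 and wildtype 4 it was 53.1 and 45.7, inside the TGFB range of 40.4 to 113.

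Genes whose levels were most like those of each chain were picked by the highest Pearson r over the 8 arrays among 11887 genes brighter than the median probe set, and with so few arrays such values come easily. Col4a1 was most like Car11 (r = 0.98), Txnrd3 (0.98) and Flvcr1 (0.96), and Col4a2 most like Plekhm2 (0.95), Gpalpp1 (0.94) and Rcc2 (0.93). Col6a1 was most like 2310057M21Rik (0.99), Inpp5j (0.99) and Gtpbp6 (0.98). Col6a2 was most like the vessel laminin chain Lama4 (0.96), H2-Aa (0.96) and Pappa2 (0.96), and Col6a3 most like Rrbp1 (0.97), Csgalnact1 (0.97) and S100a4 (0.96). Col15a1 was most like the hyaluronan synthase Has2 (0.94), Zfp799 (0.94) and Uevld (0.93), Col16a1 most like Tsga10 (0.97), Ube4a (0.96) and Ccdc186 (0.93), and Col18a1 most like Ppp2r1a (0.96), Eif2ak4 (0.94) and B4galt3 (0.94). No chain had another of the 8 genes among its nearest 3. The nearest such placings were rank 47 of Col6a3 for Col6a2, rank 84 of Col4a1 for Col18a1 and rank 144 of Col6a2 for Col6a3.

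**Figure D5:**
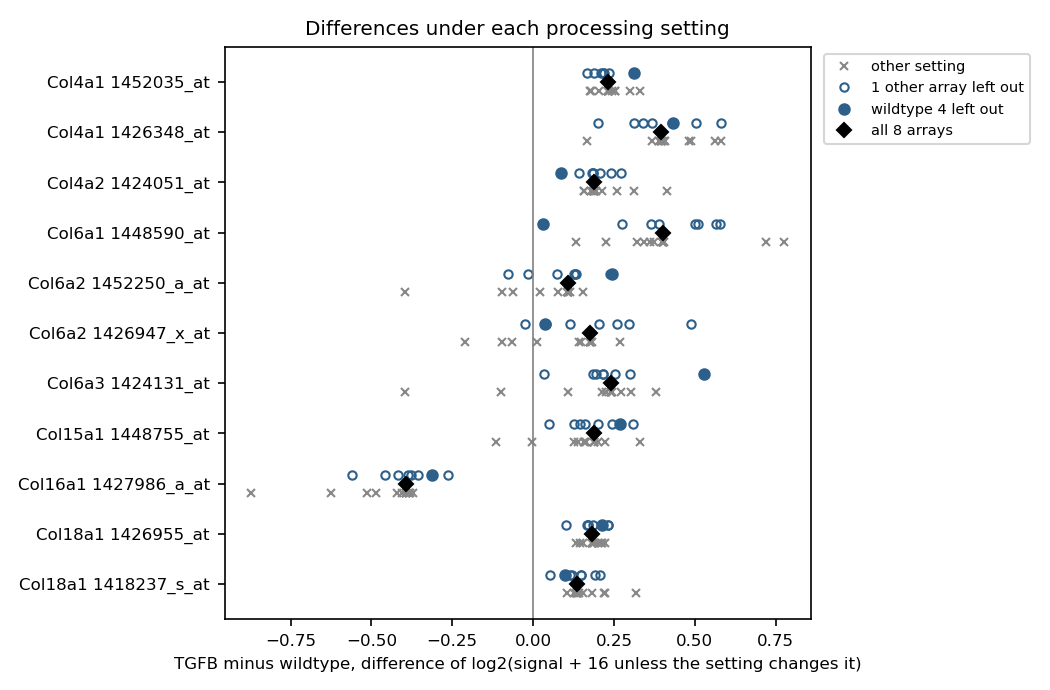
For each probe set, a diamond gives the TGFB minus wildtype log2 difference with all 8 arrays, circles the differences with 1 array left out (filled for wildtype 4) and crosses those under other settings. Col16a1 is below 0 throughout, both Col4a1 probe sets, Col4a2, Col6a1 and both Col18a1 probe sets are above 0 throughout, and leaving out wildtype 4 moves Col6a1 to 0.03 and Col6a3 to 0.53.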

How the data were processed

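Total RNA of 8 mouse cornea samples was measured on 1-colour arrays with 45101 probe sets. The deposited values are linear intensities, and how they were summarised is not given in the sources used here. By their values, the authors scaled every array to a 2% trimmed mean of 150. No further normalization was applied. The 64 control probe sets were left out, and differences were taken on log2(signal + 16), which understates changes of dim genes. The TGFB minus wildtype contrast was fitted over 45037 probe sets by lmFit and eBayes of limma 3.58.1 (R 4.3.3, 9.22 degrees of freedom in total) and adjusted by Benjamini-Hochberg. The number of arrays limits the precision.

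A platform annotation of 2016 gives 1 symbol to 34945 of these probe sets, several to 932 and none to 9160, and 34741 of the symbols were updated by Entrez ID from RefSeq (GRCm38.p6). All 8 genes had a promoter window in RefSeq (10 windows). The probe sets named are all those of the 8 genes, up to 4 genes with the smallest p from each list, the 3 genes most like each member, and Tgfb1 to Tgfb3; Col4a3 and Col25a1 fall outside this rule and were added once their values had been seen. The members and lists were chosen with earlier results of these data known. Correlations use exact two-sided permutation tests over pairings.

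On simulated data made for this comparison, the fit was tested (45037 probe sets, 200 changed, 10 simulations) and recovered 34.7% of 2-fold, 86.1% of 4-fold and 94.8% of 8-fold changes, with 5.62% false calls. The simulated noise was normal and independent between probe sets. It lacked the tissue and RNA quality differences that run through the real arrays, so these rates may not hold there. Other settings tried were a filter at the 40th percentile, median centring or quantile normalization, an offset of 1 or 32, gene-level units, eBayes with a trend or robust, array weights, arrays left out, marker scores as covariates and other thresholds. Covariate fits with the Gapdh 3'/5' ratio and the pigment cell score were chosen after seeing the data. Figures were drawn with matplotlib 3.10.9.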

Additional observations from a re-analysis of the deposited data

Results flagged for a closer look

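Among 22 groups of 4 arrays (11 probe sets in 2 groups), 1 held an array far from the others by Dixon's test, where chance gives about 1 in 20. This was Col6a1 in wildtype 4, with a signal of 1304.5. On the log2 scale of the fit, its gap to the next array took up 0.877 of the range of the wildtype group. That share was above Dixon's 95% critical value for 4 arrays. On the untransformed signals the gap took up less of the range and stayed below the critical value, so the flag depends on the scale. Wildtype 4 also has the highest Gapdh 3'/5' ratio (6.41), and the part of this ratio in the Col6a1 value was not tested beyond the covariate fit given below.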

How the results depend on the processing

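0 of the 11 probe sets were called in any setting, and their adjusted p ran from 0.327 to 1.00. Over all probe sets, leaving out 1 array gave 0 to 2 calls, the 2 of them without wildtype 4, and the unadjusted threshold gave 2641. The median difference of the 11 was 0.13 to 0.23 with 1 array left out and kept its direction in every setting, while the number of the 11 with a higher mean in TGFB ran between 6 and 10. Of the differences recomputed for single probe sets, 226 kept their direction and 13 turned, none of them a call. The leading Col6a2 probe set ran from -0.079 to 0.24 with 1 array left out, and was -0.10 without the 3 arrays with high cornified epidermis transcripts (TGFB 1, TGFB 2 and wildtype 2), -0.061 with the vessel endothelial score and -0.40 with the pigment cell score as a covariate. The second Col6a2 probe set ran from -0.025 to 0.49, and was -0.21 without those 3 arrays, -0.065 with the cornified epidermis score and -0.10 with the pigment cell score. With the vessel endothelial score Col6a3 was -0.10 and Col15a1 -0.0027, and with the pigment cell score they were -0.40 and -0.12. With the Gapdh 3'/5' ratio as a covariate, the direction of all 11 held. The TGFB ratios (2.88 to 3.55) lay inside the wildtype range (2.19 to 6.41) and had a similar log2 mean. This fit could therefore hardly turn a direction. Col6a1 was 0.34 (SE 0.26) in it, against 0.40 (SE 0.36) without the covariate. Its range was 0.13 to 0.78 over the settings that keep all arrays or drop 3. The cause of the turned values was not tested. 0 of the 28 pairs of genes passed with deviations from the group means or without 2 arrays. No paired analysis was possible because the labels number the samples in 1 run over both groups. The low number of arrays limits what can be seen of small changes.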

Other observations

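The 2 probe sets of a gene can be set against the RNA quality of each array, a relation looked at after the values were seen. The log2 difference of the second probe set from the leading one and the log2 Gapdh 3'/5' ratio had r = -0.59 for Col6a2 (exact permutation p = 0.131, adjusted p = 0.196 over 3 genes, rho = -0.05), r = -0.72 for Col18a1 (exact permutation p = 0.0516, adjusted p = 0.155, rho = -0.69) and r = -0.25 for Col4a1 (exact permutation p = 0.551, adjusted p = 0.551, rho = -0.12). Without wildtype 1 and wildtype 4, the arrays farthest from the median ratio, r was 0.06 for Col6a2, -0.17 for Col18a1 and 0.45 for Col4a1. These 2 arrays have the lowest and the highest ratio (2.19 and 6.41), so leaving them out narrows its range. The change in r therefore cannot show whether the negative values rest on them alone.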
